A study of Mus musculus with 6 samples.

Results

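The transcripts of 38 genes encoding iron-dependent 2-oxoglutarate dioxygenases were followed in mouse cells on their way to becoming osteoclasts, in cultures with and without a Cre recombinase meant to delete the gene of an iron transporter. The 38 genes were taken by name from a list of histone and DNA demethylases, AlkB homologues, collagen and lysyl hydroxylases and their relatives, out of 26699 genes listed in the files. The list goes by gene name and sets no threshold on a measured value. All 38 had 10 or more counts in at least 3 libraries, so all 38 entered the comparison. They comprise 2 TET genes, 14 histone lysine demethylase genes, 4 genes of JmjC protein hydroxylases, 9 AlkB family genes, 6 genes of collagen and endoplasmic reticulum (ER) hydroxylases and 3 OGFOD genes, spread over 18 chromosomes.

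These enzymes share a reaction centre in which ferrous iron, oxygen and 2-oxoglutarate are used to hydroxylate a substrate, with succinate and carbon dioxide as by-products. Where the hydroxylated group is a methyl group on a nitrogen of a histone or nucleic acid, it can then fall off. The same chemistry thus serves in the demethylation of chromatin and nucleic acids. Ascorbate keeps the iron reduced, and succinate and fumarate compete with 2-oxoglutarate. The activity of these enzymes therefore depends on iron and metabolites as well as on transcript amount, and only transcripts were measured here.

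The cells were primary bone marrow derived macrophages from mice aged 8 weeks. M-CSF, a growth factor of macrophages, was supplied at 10 ng/mL during expansion and at 30 ng/mL afterwards, when 50 ng/mL RANKL was added for 48 h. RANKL is the cytokine that sets off osteoclast formation. Control cells had the genotype Slc11a2flox/flox. Conditional knockout cells (cKO) had the genotype LysmCre-Slc11a2flox/flox, in which the same floxed alleles meet Cre recombinase from the myeloid lysozyme M locus. Slc11a2 encodes DMT1, which carries ferrous iron into the cytosol. Each genotype had 3 libraries, and the controls carried no Cre, so Slc11a2 loss and the presence of Cre cannot be told apart. Nothing in the labels says that the libraries came from separate mice, so p-values reflect the spread among the 6 libraries only, some of which may be technical. Values of single libraries are given in the order of replicates 1, 2 and 3. The comparison asks how transcript levels differ between the genotypes at this stage.

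Libraries held 49720701 to 57797282 counts. As a check of the labels, Slc11a2 stood at 119, 109.6 and 118 CPM (counts scaled to a common library total) in the control libraries and at 78.3, 82.8 and 87.4 CPM in the cKO libraries, a log2 fold change of -0.48. Lyz2, the gene at the Cre locus, fell by 1.14 on the log2 scale, and both genes were lower in every cKO library. The 16 macrophage and osteoclast markers were all measured, with summed levels of 18301 to 21874 CPM in control and 14816 to 19036 CPM in cKO libraries, and 14 of the 16 lay below 0, with a median log2 fold change of -0.20. None passed edgeR's test, 4 had an unadjusted p below 0.05 (3 lower and 1 higher), DESeq2 called 1, and 6 were called when cKO replicate 3 was left out. Some genes listed as markers of other cells differed between the genotypes. Of 10 neutrophil markers 7 could be tested, 4 passed, all higher, and 2 lay below 0. Their summed levels were 20.9 to 26.3 CPM in control and 47.1 to 60.8 CPM in cKO libraries, and Ly6g had no row. Of 7 dendritic cell and 8 B cell markers 3 each could be tested, and Itgax and Ighm were higher, although the B cell marker Ms4a1 had no row, and Pf4 among 8 mast cell and megakaryocyte markers, 4 of them tested, was lower. With each library left out in turn, Itgax, Ngp, Ltf and S100a9 were called in 6 of 6 fits, Ighm and Pf4 in 3 and S100a8 in 1. None of the stroma, erythroid, T and NK cell or endothelium markers passed. The part of these cells in the differences below was not tested, and in bulk RNA fewer cells of a type and less RNA per cell cannot be told apart.

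Of 16843 genes tested with edgeR's quasi-likelihood test, 2.42% had an adjusted p below 0.05 (here "called"), 1.36% higher and 1.06% lower in cKO cells. Of the 38 dioxygenase genes 1 was called, Kdm6b, higher in cKO cells, and none was called lower. At an unadjusted p below 0.05 stood 5 of the 38 genes, 3 higher and 2 lower, beside 17.2% of all genes tested (8.38% higher and 8.79% lower). The libraries of the genotypes did not overlap for 4 of the 38 genes, 3 higher and 1 lower, beside 22.5% of all genes tested (11.1% higher and 11.4% lower). Log2 fold changes ran from -0.29 for Riox1 to 0.27 for Kdm6b, with 19 genes above and 19 below 0. Their median was -0.0083, against 0.0015 over all genes tested. The median size of change was 0.07 for the 38 genes and 0.15 for all genes tested, with median standard errors of 0.08 and 0.13. Over the 38 genes, the 95% intervals of the log2 fold change stayed between -0.64 (Alkbh7) and 0.68 (Kdm8).

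**Figure D1:**
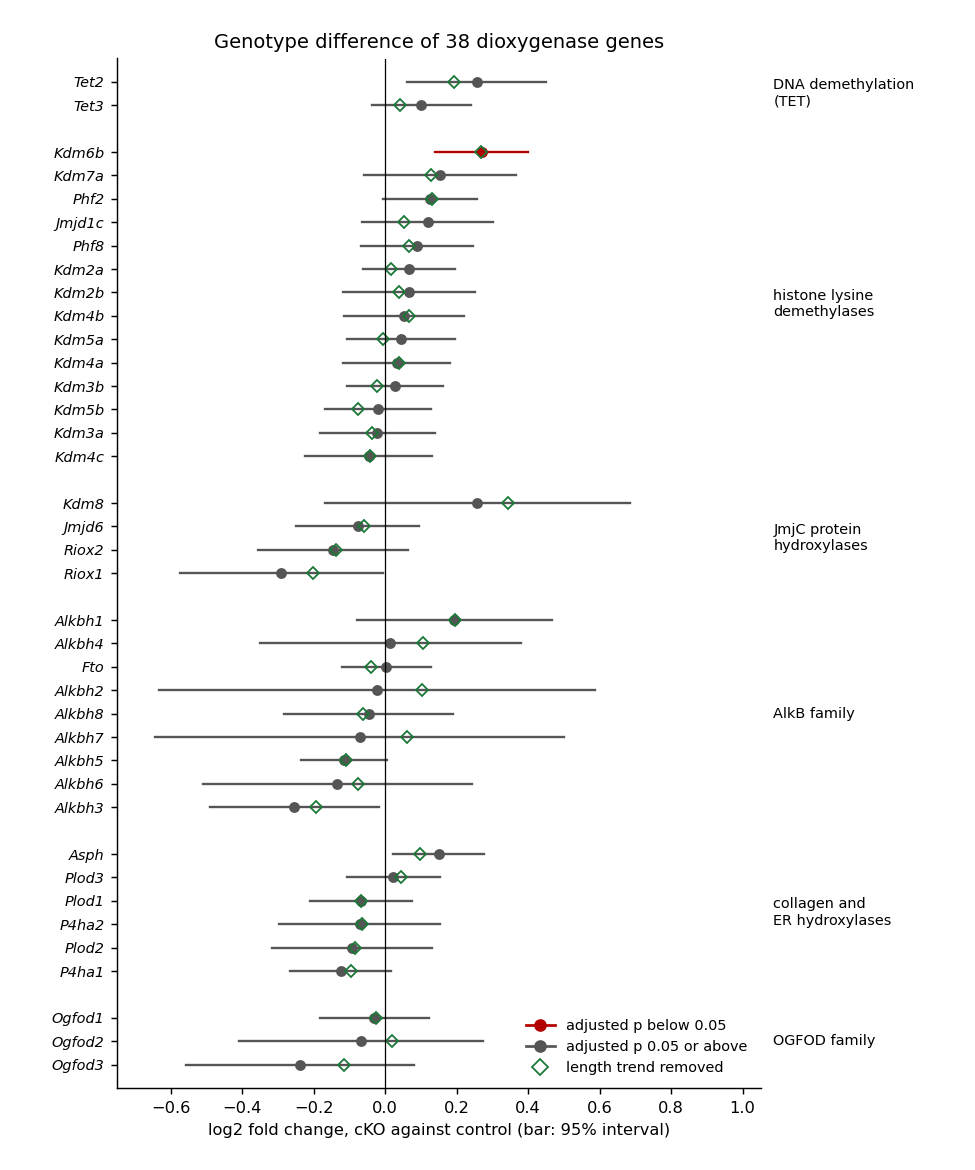
Log2 fold change of each of the 38 genes, cKO against control, with its 95% interval (bar), grouped by role; filled points are the edgeR estimates (red where the adjusted p is below 0.05) and open diamonds the estimates after removal of the trend with gene length. Kdm6b at 0.27 is the single red point, and 19 points lie on each side of 0.

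Levels of different genes were compared on the authors' FPKM scale, which divides by gene length. P4ha1, a catalytic subunit of collagen prolyl 4-hydroxylase, had the highest level, with a mean of 34.9 FPKM over the 6 libraries. The lysyl hydroxylase genes Plod3 (28.9 FPKM) and Plod1 (23.0 FPKM) and the RNA demethylase gene Alkbh5 (19.8 FPKM) followed. The highest histone demethylase genes were Kdm4a at 13.6 FPKM and Phf2 at 12.6 FPKM, and Kdm6b had a mean of 8.53 FPKM. The lowest were Alkbh8 at 1.5 FPKM, Alkbh7 at 1.18 FPKM, Kdm8 at 1.15 FPKM and Alkbh2 at 1.15 FPKM. Alkbh2, which repairs methylated bases in DNA, lay at percentile 34.7 of all genes tested and P4ha1 at percentile 93.8. In the order of levels, neighbours were separated in all 6 libraries at 5 of 37 steps: Plod3 above Plod1, Plod1 above Alkbh5, Alkbh5 above Kdm4a, Phf2 above Kdm2a, and Kdm5b above Riox2. The other 32 neighbouring pairs overlapped, P4ha1 and Plod3 among them. Within a genotype the coefficient of variation of CPM ran from 2.08% to 18.6% (median 6.49%) in control and from 1.53% to 27.1% (median 7.41%) in cKO libraries.

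**Figure D2:**
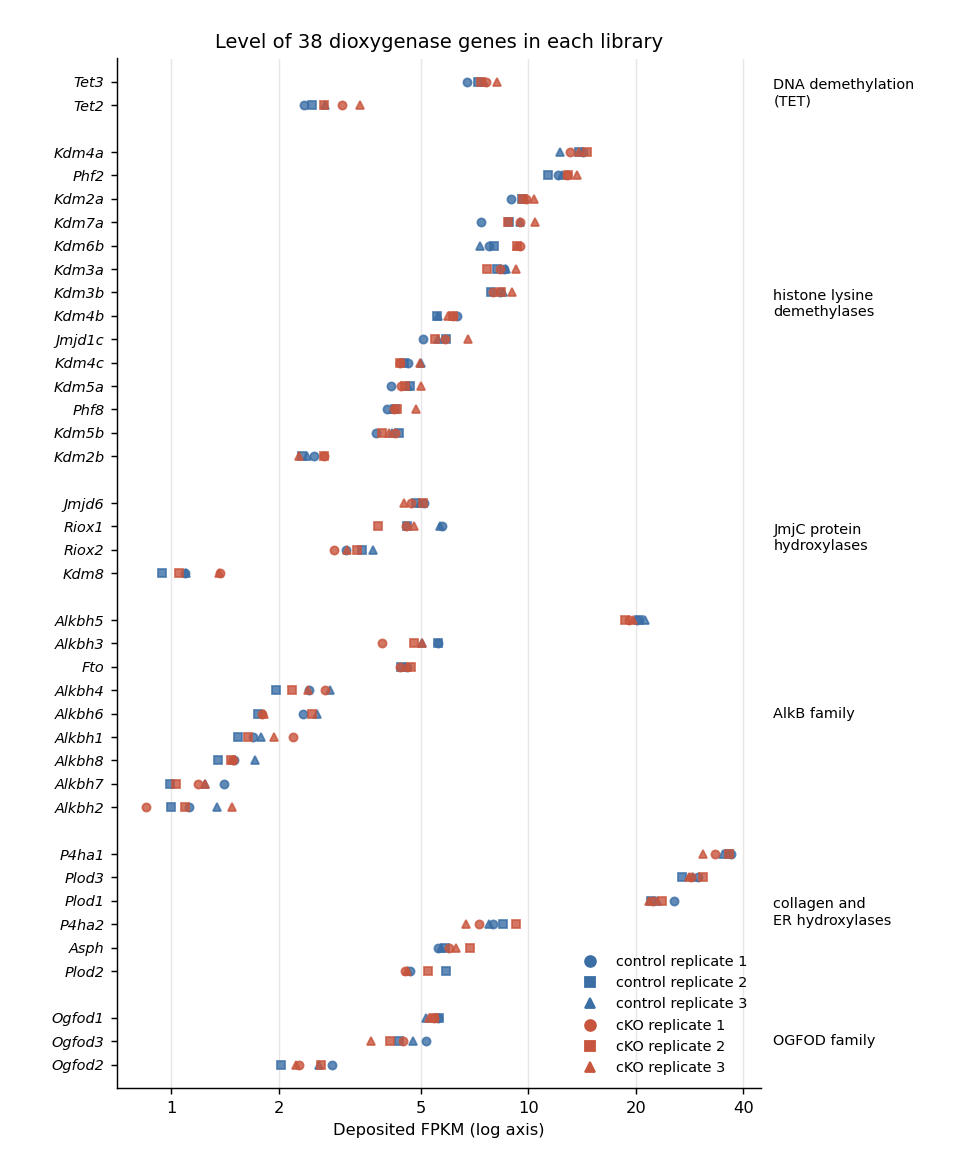
Deposited FPKM (log axis) of the 38 genes in each of the 6 libraries, grouped by role and ordered by mean; each point is a library, with genotype and replicate given by colour and shape. P4ha1 is highest at a mean of 34.9 FPKM and Alkbh2 lowest at 1.15 FPKM, and the genotypes lie close together for most genes.

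The TET enzymes oxidise 5-methylcytosine, the first step of active DNA demethylation. Tet2 stood at 46.0, 48.6 and 52.4 CPM in the control libraries, and the cKO libraries had 58.9, 51.1 and 65.6 CPM. The genotypes overlapped, since cKO replicate 2 was below control replicate 3. The log2 fold change of Tet2 was 0.26 ± 0.09 (SE), with an unadjusted p of 0.0142 and an edgeR adjusted p of 0.167. Without cKO replicate 3 it was 0.17. Tet3, the more abundant of the pair at 7.44 against 2.76 FPKM, stood at 130.2, 140.0 and 144 CPM in control and at 148, 139.5 and 157 CPM in cKO libraries. Its groups overlapped too, and its log2 fold change was 0.10 ± 0.06 (SE, adjusted p = 0.455). For both genes control replicate 1 was the lowest library and cKO replicate 3 the highest.

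Among the histone lysine demethylases the called gene was Kdm6b, also known as JMJD3. It removes the repressive methyl mark that Polycomb complexes place on histone H3, is induced by inflammatory stimuli in macrophages, and has been described as acting at Nfatc1, the gene of the master transcription factor of osteoclasts. Kdm6b (ENSMUSG00000018476, mm10 chromosome 11, 69398508 to 69413675) was measured at 62.8, 64.5 and 58.7 CPM in the control libraries, and at 76.6, 73.3 and 74.4 CPM in the cKO libraries. Every cKO library was above every control library. The mean rose from 62.01 ± 2.95 to 74.8 ± 1.65 CPM (SD, n = 3 per genotype), an increase of 20.6%. The log2 fold change was 0.27 ± 0.06 (SE), with a 95% interval of 0.14 to 0.40 and an edgeR adjusted p of 0.0387. The call did not survive the loss of most single libraries: leaving out control replicates 1, 2 and 3 in turn gave adjusted p-values of 0.110, 0.0758 and 0.153. Leaving out cKO replicates 1 and 2 in turn gave 0.206 and 0.0634, and the call held when cKO replicate 3 was left out (0.0487). The log2 fold change itself stayed between 0.24 and 0.29 over 14 alternative analyses. An antisense gene, Kdm6bos, overlaps 4.11% of the exonic bases of Kdm6b but had 25 reads over the 6 libraries.

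The other 13 histone demethylase genes did not pass the test. Kdm4a, which acts on the methylated lysines of histone H3 and had the highest FPKM of the class, stood at 95.4, 92.7 and 81.6 CPM in control and at 87.8, 95.7 and 92.5 CPM in cKO libraries. Its libraries overlapped widely, with a log2 fold change of 0.03 and a 95% interval of -0.12 to 0.18. Phf2, a demethylase gene of the PHF family chosen here after its values were seen, stood at 77.4, 72.2 and 78.7 CPM in control and at 82.0, 80.5 and 86.6 CPM in cKO libraries. Its genotypes did not overlap, but its log2 fold change of 0.13 ± 0.06 (SE) had an edgeR adjusted p of 0.312. Of the 14 genes 11 had positive values, with a class median of 0.060 (0.039 after removal of the trend with gene length, with 9 positive). Kdm7a was at 0.15 ± 0.10 (SE), Jmjd1c at 0.12 ± 0.08, and Phf8 at 0.09 ± 0.07. Phf8 is X-linked, and its 95% interval was -0.07 to 0.24. Beside it, the Y-linked genes Ddx3y (0.28 ± 0.06, adjusted p = 0.0378) and Eif2s3y (0.36 ± 0.07, adjusted p = 0.0205) were higher in cKO cells, and Xist stood between 3.96 and 8.89 CPM in the 6 libraries, with a log2 fold change of -0.62 and an edgeR adjusted p of 0.227 (0.0283 unadjusted). With each library left out in turn, Ddx3y was called in 1 of 6 fits and Eif2s3y in 3 of 6. The part of the sex of the source mice was not tested. Kdm5b, Kdm3a and Kdm4c lay slightly below 0, at -0.02, -0.02 and -0.05. Over the 16 TET and histone demethylase genes, cKO replicate 3 was the highest library for 10 and control replicate 1 the lowest for 8. Without cKO replicate 3 the median of the 14 histone demethylase genes was 0.029, with 9 positive.

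**Figure D3:**
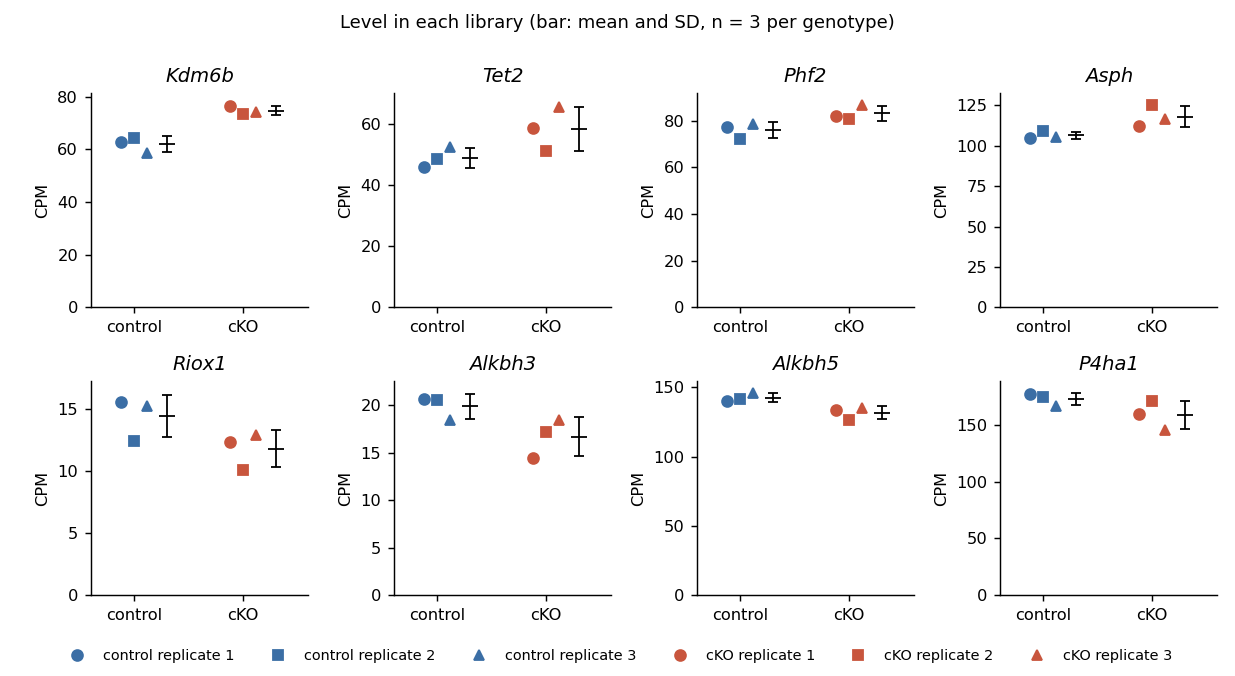
CPM of 8 of the genes in each library, by genotype; points are libraries and bars the mean and SD (n = 3 per genotype), on axes that start at 0. Control and cKO points do not overlap for Kdm6b, Phf2, Asph and Alkbh5, and overlap for Tet2, Riox1, Alkbh3 and P4ha1.

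The JmjC protein hydroxylases act on proteins such as ribosomal subunits and splicing factors. Riox1, a histidine hydroxylase of a ribosomal protein, stood at 15.6, 12.5 and 15.2 CPM in control and at 12.4, 10.1 and 12.9 CPM in cKO libraries. The groups overlapped between control replicate 2 and cKO replicate 3. Its log2 fold change of -0.29 ± 0.13 (SE) had an unadjusted p of 0.0452 and an edgeR adjusted p of 0.278. An antisense gene covers 31.9% of the exonic bases of Riox1 and had 33 reads in all. Other overlapping genes had more reads, and the counts of the genes they touch are uncertain for that reason. Among them, opposite-strand genes cover 22.4% of the exonic bases of Riox2 (Crybg3, 39943 reads) and 29.5% of those of Alkbh2 (Usp30, 9523 reads). They also cover 17.0% of those of Ogfod3 (Hexdc, 2076 reads), 11.7% of those of Plod3 (Znhit1, 8204 reads) and 5.77% of those of Kdm2b (Rnf34, 11028 reads). Jmjd6, a lysyl hydroxylase of splicing factors and by a narrow margin the most abundant of the class at 4.86 FPKM, stood at 27.9, 26.5 and 26.9 CPM in control and at 25.7, 27.1 and 24.2 CPM in cKO libraries. Its genotypes overlapped, with a log2 fold change of -0.08 ± 0.08 (SE). Riox2, which also hydroxylates a ribosomal protein, was at -0.15 ± 0.10. Kdm8, with a control mean of 2.89 ± 0.26 CPM and a cKO mean of 3.46 ± 0.54 CPM (SD, n = 3), had a wide interval of -0.17 to 0.68.

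AlkB family enzymes remove methyl and other alkyl groups from DNA, RNA and some proteins. Alkbh5, an eraser of N6-methyladenosine in messenger RNA and the most abundant of the class, stood at 139.8, 142 and 146 CPM in control and at 133, 126 and 135 CPM in cKO libraries. Every cKO library was below every control library. The log2 difference was -0.11 ± 0.06 (SE; edgeR adjusted p = 0.312). Fto, the other eraser of that mark, had the value nearest to 0 among the 38 genes, with a 95% interval of -0.12 to 0.13. Alkbh3, which repairs alkylated single-stranded DNA and RNA, stood at 20.6, 20.6 and 18.4 CPM in control and at 14.4, 17.2 and 18.4 CPM in cKO libraries. The highest cKO library and the lowest control library were level, and the log2 fold change of -0.25 ± 0.11 (SE) had an unadjusted p of 0.0375 and an edgeR adjusted p of 0.258. Without cKO replicate 1 its value was -0.16. Alkbh1, which acts on transfer RNA, was at 0.19 ± 0.13. Alkbh2 (1.498 ± 0.21 CPM in control cells) and Alkbh7, a mitochondrial member (1.46 ± 0.26 CPM), were too low for a narrow estimate, with standard errors of 0.28 and 0.26. The remaining 3 genes, Alkbh4, Alkbh6 and Alkbh8, ran from -0.13 to 0.01. The class median was -0.05, with 3 of 9 positive, and leaving out control replicate 2 moved it to -0.12, and leaving out control replicate 3 to 0.0061.

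The collagen hydroxylases work in the ER on newly made collagen chains. P4ha1 and P4ha2 encode alternative catalytic subunits of prolyl 4-hydroxylase, and both are known targets of hypoxia-inducible factors. Their promoters are shown because these 2 genes are described below both with the collagen genes and with the genes of the hypoxia response. The 250 bases before the RefSeq gene start are given 5′ to 3′ on the plus strand of GRCm38.p6, chr10:59323046-59323295 for P4ha1 and chr11:54100674-54100923 for P4ha2. The P4ha1 window ends just before the gene as counted, which starts at 59323296. P4ha2 as counted starts at 54100095, so its window lies inside the counted gene. Capitals mark matches to the core letters of the hypoxia response element, ACGTG or GCGTG on either strand.
P4ha1: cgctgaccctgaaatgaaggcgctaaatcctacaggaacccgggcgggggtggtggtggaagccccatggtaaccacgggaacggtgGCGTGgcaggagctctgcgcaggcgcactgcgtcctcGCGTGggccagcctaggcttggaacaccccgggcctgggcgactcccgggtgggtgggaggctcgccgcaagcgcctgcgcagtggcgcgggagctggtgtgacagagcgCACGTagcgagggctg
P4ha2: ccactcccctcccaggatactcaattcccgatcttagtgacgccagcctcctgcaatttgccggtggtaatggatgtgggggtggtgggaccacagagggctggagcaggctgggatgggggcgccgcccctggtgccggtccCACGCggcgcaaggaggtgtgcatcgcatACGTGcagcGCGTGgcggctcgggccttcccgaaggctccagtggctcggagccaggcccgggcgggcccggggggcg
P4ha1 held 3 matches, beginning 163, 126 and 16 bases before the start, and P4ha2 held 3, beginning 107, 78 and 69 bases before it. Of the 38 genes 30 had such a window, and 20 of these (66.7%) held at least 1 match, beside 41.5% of 27025 genes. At least 3 matches were held by 20% of the 30 and by 7.54% of all. The 27025 genes were not limited to those tested here and were not matched for base composition, so these shares are not like for like. A match is a description of letters and not a shown binding site.

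P4ha1 stood at 177, 174 and 167 CPM in control and at 159, 171 and 146 CPM in cKO libraries. The groups overlapped through cKO replicate 2, and the log2 fold change was -0.12 ± 0.07 (SE, edgeR adjusted p = 0.356). P4ha2, from the second of the promoters above, was at -0.07 ± 0.10. The lysyl hydroxylase genes Plod1, Plod2 and Plod3, whose products prepare collagen for cross-linking, were at -0.07 ± 0.07, -0.09 ± 0.10 and 0.02 ± 0.06. Of these 5 collagen hydroxylase genes 4 lay below 0 and none had an unadjusted p below 0.05. Without cKO replicate 2, P4ha1 was at -0.18 and P4ha2 at -0.21, both then at an unadjusted p below 0.05 and neither called. P4hb, the gene of the partner subunit of prolyl 4-hydroxylase, was lower in every cKO library than in every control library, as were 11.4% of all genes tested. It was not called. Asph, whose product hydroxylates EGF-like domains in the ER, stood at 105, 109 and 105 CPM in control and at 112, 125 and 117 CPM in cKO libraries. Its genotypes did not overlap, and its log2 fold change of 0.15 ± 0.06 (SE) had an unadjusted p of 0.0246 and an edgeR adjusted p of 0.217.

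Collagen itself was among the abundant transcripts of these cultures. Col1a1 stood at 2058, 2242 and 1934 CPM in control and at 2234, 2857 and 1749 CPM in cKO libraries, and Col1a2 at 1409, 1530 and 1297 CPM and at 1572, 1990 and 1258 CPM. For these collagens and for P4ha2 the highest library was cKO replicate 2 and the lowest cKO replicate 3. Col3a1 was highest in cKO replicate 2 but lowest in control replicate 3, and P4ha1, Plod1, Plod2 and Plod3 did not share that order over all 6 libraries. Among the cKO libraries alone, however, replicate 2 was highest for each of these collagen and hydroxylase genes. There replicate 3 was lowest for each of them except Plod2, for which replicates 1 and 3 were nearly level. P4ha2 stood at 57.7, 61.4 and 55.7 CPM in control and at 52.8, 65.5 and 48.1 CPM in cKO libraries. Col1a1 and Col1a2 are 2 of 10 stroma markers, whose summed level was 3447 to 4019 CPM in control and 3253 to 5199 CPM in cKO libraries. All 9 stroma markers tested had positive values and 4 had an unadjusted p below 0.05, with none called, and their part in the level of the collagen hydroxylases was not tested.

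**Figure D4:**
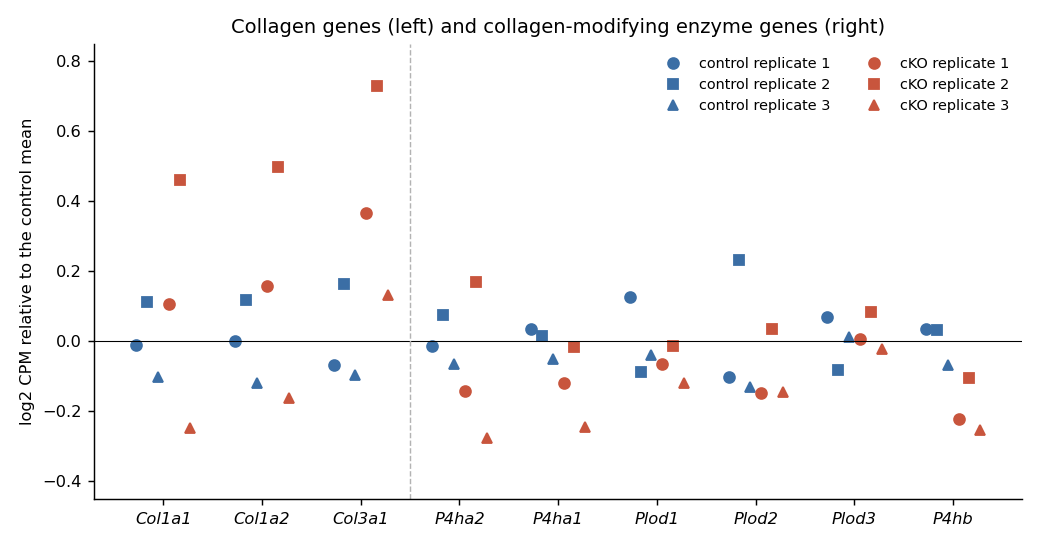
Log2 CPM relative to the control mean of 3 collagen genes (left of the dashed line), and of the 5 collagen hydroxylase genes and P4hb, which encodes the partner subunit of prolyl 4-hydroxylase (right), in each of the 6 libraries, with genotype and replicate given by colour and shape. For Col1a1, Col1a2 and P4ha2 the highest point is cKO replicate 2 and the lowest cKO replicate 3, an order over all 6 libraries that the other 6 genes shown do not share. Among the cKO points alone, replicate 2 is highest for every gene shown and replicate 3 lowest for every gene except Plod2.

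The 3 OGFOD genes all lay below 0, at -0.03 ± 0.07 for Ogfod1, -0.07 ± 0.16 for Ogfod2 and -0.24 ± 0.15 for Ogfod3. Ogfod1, the prolyl hydroxylase of a ribosomal protein and the most abundant of the class, stood at 37.99, 38.2 and 34.7 CPM in control and at 37.0, 36.1 and 35.6 CPM in cKO libraries. The cKO libraries lay within the control range. Ogfod2 turned to 0.02 once the trend with gene length was removed, and no OGFOD gene had an unadjusted p below 0.05.

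Gene length moved with the differences and was unequal between the role classes. Over the 38 genes, log2 exonic length and log2 fold change had a Pearson r of 0.48 and a Spearman rho of 0.56, across genes that share the same 6 libraries. The 19 genes longer than the median of 5916 bases had a median of 0.067 with 13 positive, and the 19 shorter a median of -0.068 with 6 positive. The same trend ran through the 9440 genes above 3 log2 CPM, where r was 0.24, rho was 0.30, and the median log2 fold change climbed from -0.12 in the shortest to 0.05 in the longest of 10 equal groups. With the trend removed, r over the 38 genes was 0.08, the medians of the longer and shorter genes were 0.02 and -0.02, and over all genes 360 were called, 251 higher and 109 lower, against 407 with 229 higher and 178 lower. Kdm6b kept its value (0.27, edgeR adjusted p = 0.0357), while Ogfod3 moved from -0.24 to -0.12, Tet3 from 0.10 to 0.04, Jmjd1c from 0.12 to 0.05, Asph from 0.15 to 0.10, Tet2 from 0.26 to 0.19 and Riox1 from -0.29 to -0.20. Asph and Riox1 then no longer had an unadjusted p below 0.05. At that threshold there were then 3 of the 38 genes higher and 1 lower, and the histone demethylase genes among them went from 1 to 2.

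**Figure D5:**
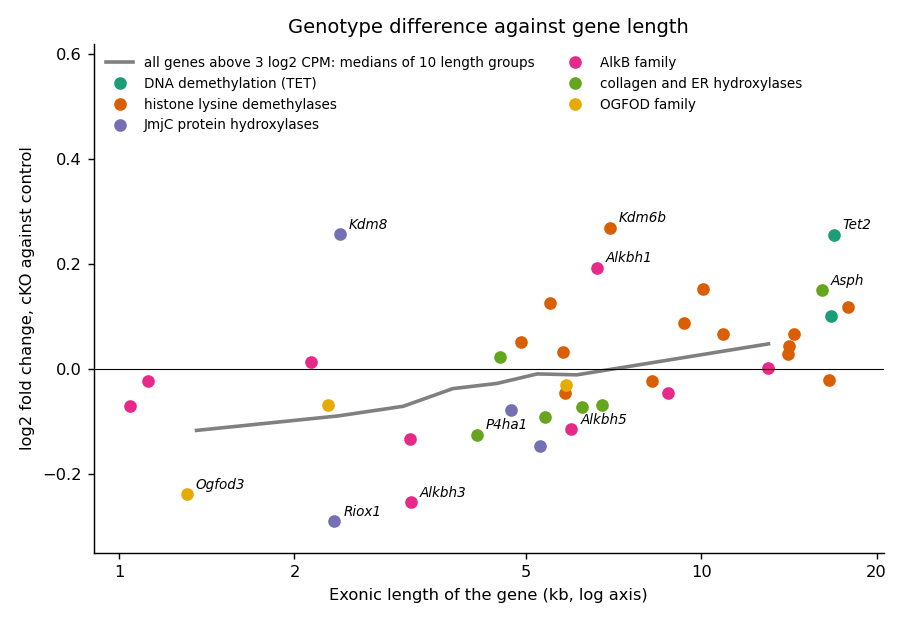
Log2 fold change, cKO against control, against the exonic length of the gene (kb, log axis) for the 38 genes, coloured by role. Longer genes tend to lie above 0 and shorter genes below, with r = 0.48, and the line traces the medians of all genes above 3 log2 CPM.

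Other genes of the same chemistry were compared in lists. Of 27 further 2-oxoglutarate dioxygenase genes 23 were tested, with a median of 0.08. At an unadjusted p below 0.05 stood 4 higher and 2 lower, beside 8.38% and 8.79% of all genes tested. The higher ones included the Y-linked genes Kdm5d and Uty, neither of them called. Of the 23 genes 1 was called, beside 2.42% of all genes tested. That gene was Hr, a JmjC demethylase known as hairless, at 4.17, 4.25 and 3.26 CPM in control libraries against 6.63, 6.93 and 7.71 CPM in cKO libraries. Its log2 fold change was 0.86 ± 0.16 (SE, edgeR adjusted p = 0.0194), with the call lost without control replicate 1 (0.0768), control replicate 3 (0.0927) or cKO replicate 1 (0.0935). Of 10 genes for iron chaperones, ascorbate handling and glucose carriers that take up its oxidised form, none was called by edgeR and 1 by DESeq2. At an unadjusted p below 0.05 stood 5 of them (2 higher and 3 lower), beside 17.2% of all genes tested. The smallest p belonged to Slc2a1 at -0.18 ± 0.06 (adjusted p = 0.127) and Slc2a3 at 0.84 ± 0.27 (adjusted p = 0.133), both glucose carrier genes.

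Of 22 genes whose products make, use or carry 2-oxoglutarate, succinate or fumarate, 5 were called, all lower, beside 1.06% of all genes tested. In this list 19 genes lay below 0, with a median of -0.16. The 5 were Idh3a (-0.36 ± 0.08), a subunit of the NAD-dependent isocitrate dehydrogenase that makes 2-oxoglutarate, Sdhb (-0.43 ± 0.07), Sdhc (-0.31 ± 0.07) and Sdhd (-0.25 ± 0.06), subunits of succinate dehydrogenase, and Slc25a11 (-0.29 ± 0.06), the mitochondrial carrier of 2-oxoglutarate. All 5 lost their call without control replicate 1, control replicate 3 or cKO replicate 1, with adjusted p-values of 0.0767 to 0.264. Some were lost without other libraries too. With each library left out in turn, Idh3a and Sdhd were called in 1 of 6 fits, Sdhc in 2, and Sdhb and Slc25a11 in 3. With the trend with gene length removed 3 genes of this list were called, and over the alternatives the value of Sdhd came as near to 0 as -0.13. The difference between this list and the dioxygenase genes was not tested.

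The enzymes that write the marks which the dioxygenases erase were compared as well. None of 22 histone methyltransferase genes was called by edgeR, and their median was 0.06. At an unadjusted p below 0.05 stood 6 of them, all higher, beside 8.38% of all genes tested. The smallest p among them belonged to Nsd3 (0.18 ± 0.06) and Kmt2a (0.25 ± 0.08). Of 5 DNA methylation genes Uhrf1, the partner of the maintenance methyltransferase, was higher at 0.43 ± 0.09 (adjusted p = 0.0361). Its call held without control replicate 2 (0.0383) and was lost without each other library, with adjusted p-values of 0.0519 to 0.174. None of 12 genes that write or read N6-methyladenosine was called or had an unadjusted p below 0.05, and the flavin-dependent demethylase genes Kdm1a and Kdm1b, which need no iron, were at -0.14 ± 0.07 and 0.12 ± 0.09.

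Of 20 hypoxia response genes tested 2 were called, both lower, beside 1.06% of all genes tested. They were Bnip3, a mitophagy receptor gene (-0.35 ± 0.07, adjusted p = 0.0236), and Pgk1, a glycolytic enzyme gene (-0.30 ± 0.06, adjusted p = 0.0236). Eno1 (-0.25 ± 0.07) and Slc2a1 followed by p without being called. The calls of Bnip3 and Pgk1 were lost without any 1 control library or without cKO replicate 1, with adjusted p-values of 0.0635 to 0.175. Among the 38 dioxygenase genes, 6 taken here as hypoxia-induced (Kdm3a, Kdm4b, Kdm4c, P4ha1, P4ha2 and Plod2) had a median of -0.06, with 5 below 0 and none called. This group of 6 was drawn up after values had been seen and may not be complete. It leaves out Kdm6b, the gene that was called, at 0.27, so its counts depend on the choice of genes.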

How the data were processed

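Per the labels' protocols, polyadenylated RNA was made into libraries by a dUTP method that marks the strand. The tool cutadapt 1.9 and the build mm10 appear in the submitters' processing notes. The aligner, the counting program, its annotation release and its strand setting were not given in the sources used here. Exons of 19 of the 38 genes overlap another gene in GENCODE M21, 18 of them on the opposite strand, and 30 of the 38 genes had the same coordinates there. The deposited files hold raw read counts per gene, per the file headers, and the authors' FPKM values, likewise per the file headers.

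Counts were fitted with edgeR 4.0.16 in R 4.3.3 (filterByExpr at min.count 10 and min.total.count 15, TMM scaling, robust quasi-likelihood F test, genotype only). P-values were adjusted by Benjamini and Hochberg over the 16843 genes tested. CPM are after TMM scaling, and FPKM served only to compare genes and to derive exonic length from counts. The length trend was a lowess curve (span 0.3) over genes above 3 log2 CPM, subtracted through offsets. DESeq2 1.42.0, limma-voom 3.58.1, other scaling and filters, a replicate block and each library left out were alternatives. The pipeline was tested on simulated data. Members and lists were chosen with earlier results of these data known. Of the 38 genes, every-library values are given for those called in any fit, at an unadjusted p below 0.05, or highest in FPKM of their class; Phf2, P4ha2 and the collagen genes were added after their values were seen. List genes named are those called or of smallest p (up to 4 for hypoxia, up to 2 otherwise). Promoter sequences are RefSeq's (GRCm38.p6), with 8 of the 38 genes unmatched. Aldoa was left out since 2 rows share its symbol.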

Additional observations from a re-analysis of the deposited data

How the results depend on the processing

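Over 14 alternatives the 38 genes gave 532 log2 fold changes: 490 kept direction and side of the threshold, 5 (Kdm6b, above) kept direction and lost the call, and 37 changed sign, none of them called. With the length trend removed Kdm3b was at -0.022, Kdm5a at -0.0055, Alkbh2 at 0.10, Alkbh7 at 0.061, Fto at -0.040 and Ogfod2 at 0.020, and with the replicate block and length trend removed they were at -0.021, -0.0056, 0.081, 0.066, -0.041 and 0.028. With limma-voom Fto was at -0.0062. The other changes of sign came with a library left out. Leaving out 1 library at a time gave -0.097 to 0.051 for Kdm3a, -0.021 to 0.064 for Kdm3b, -0.029 to 0.080 for Kdm4a, -0.013 to 0.073 for Kdm5a, -0.071 to 0.023 for Kdm5b, -0.25 to 0.14 for Alkbh2, -0.11 to 0.14 for Alkbh4, -0.21 to 0.049 for Alkbh7, -0.13 to 0.046 for Alkbh8, -0.018 to 0.025 for Fto, -0.21 to 0.022 for P4ha2, -0.12 to 0.00094 for Plod1, -0.15 to 0.029 for Plod2, -0.022 to 0.060 for Plod3 and -0.19 to 0.035 for Ogfod2. The cause was not tested.

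The number of genes called was 407, against 874 with DESeq2, 704 with limma-voom and 59 to 624 with 1 library left out. The calls among the 38 genes were 1, and 0 to 1 with 1 library left out. Over the lists of other dioxygenases, cofactors, opposing enzymes, hypoxia genes and sex-linked genes, 11 were called, against 17 with DESeq2 and 0 to 13 with 1 library left out. Whether the replicate numbers pair the samples cannot be told from deviations within 3 libraries per genotype. Deviations of same-numbered libraries correlated at -0.08, 0.05 and 0.26 over 9454 genes. The value of 0.26, for replicates 3, was the highest of any control and cKO pair. Control replicate 1 correlated best with cKO replicate 2 (0.15). The replicate block gave 673 calls, and 743 with the length trend removed too, and Kdm6b was called in both. Of the 16 macrophage and osteoclast markers the block called 8, and 9 with the length trend removed too, against 0. Depth limits Alkbh2, Alkbh7 and Kdm8, at 1.15 to 1.18 FPKM.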
